A study of Mus musculus with 23 samples.

Results

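Rnf32 encodes a RING finger protein and stands at the end of the Shh regulatory domain that lies opposite Shh. Its viewpoint is a pair of 21 kb bins out of 80 in the mm9 mouse build, which the matrices name bin57|mm9|chr5:29514087-29535087 and bin58|mm9|chr5:29535087-29556087 and which are called bin57 and bin58 here. They lie next to the 3′ end of Lmbr1. The members were chosen by position. They are all pairs of these bins in every library except those of the D700 embryos, which lack both bins, and summed matrices were set aside. Of 159 distinct pairs, 6 involve a bin without values, 5 join bins fewer than 2 bins apart, and 148 were tested. Contact was measured by 5C, in which ligated HindIII fragment ends of one targeted locus are read out with a set of matched primers.

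Shh encodes Sonic hedgehog, a secreted signal that patterns limb, neural tube and gut. Its enhancers are spread over a gene desert, and the limb enhancer, the ZRS, sits inside an intron of Lmbr1, beyond Rnf32 as seen from Shh. CTCF is a zinc finger protein that binds DNA, sits at many borders between domains and is known to stop loop extrusion by cohesin. The Rnf32 bins lie between the desert and Lmbr1, so their contacts can be read towards Shh on one side and towards the ZRS and Mnx1 on the other. In the RefSeq gene order of the GRCm38.p6 build, 6 genes lie between Shh and Rnf32. Of these, 4 are lncRNAs, 2 are pseudogenes and 0 are protein coding.

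The edited ESC groups were the E14 mouse embryonic stem cell (ESC) lines DCTCF1, DCTCF2, DCTCF3, DCTCF4, DCTCF5 and D35, which were set against wild type E14 ESC. The tissues were E11.5 posterior limb buds and E11.5 anterior limb buds of CD1 embryos, and 1 library of E11.5 CD1 embryo bodies, which entered no test. Every other group had 2 libraries, which makes 19 in all. By their names the DCTCF lines carry deletions of CTCF sites. By the labels of its data D35 is also a deletion line, with a deletion longer than a 21 kb bin. These labels do not place the D35 deletion. The sources used here do not give the positions of the deleted CTCF sites, the number of clones per line, or how many embryos were pooled. Sample titles call the replicates biological, but they do not say that cultures or litters were separate, and DCTCF2 replicate 2 has a run name with a technical mark. The p-values therefore measure the spread between these libraries.

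Contact values had no stated unit or normalisation, and the depth behind them is unknown. Totals over pairs at least 2 bins apart were between 48066 and 48797 in the 19 libraries, and values below are scaled to one such total. Bins 25, 29 and 64 had no value in any library, and bin 65 was at 0 with both Rnf32 bins in both D35 libraries. Bin57 had the same value with 2 neighbouring partners at 23 of 69 places in every library, and bin58 at 18 of 69, so partner bins are not independent measurements. The Shh bin and bin 23 were one such place, with identical values to bin57 in 19 of 19 libraries.

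The promoter of Rnf32 is shown because it names the viewpoint, with CG dinucleotides in capitals. It is the RefSeq sequence of GRCm38.p6, chr5:29195743-29196042, plus strand, a build that differs from that of the contact bins. It holds 36 CG dinucleotides in 300 bases, a number that 6.23% of the 32851 RefSeq promoters of this length reach.
Rnf32 promoter: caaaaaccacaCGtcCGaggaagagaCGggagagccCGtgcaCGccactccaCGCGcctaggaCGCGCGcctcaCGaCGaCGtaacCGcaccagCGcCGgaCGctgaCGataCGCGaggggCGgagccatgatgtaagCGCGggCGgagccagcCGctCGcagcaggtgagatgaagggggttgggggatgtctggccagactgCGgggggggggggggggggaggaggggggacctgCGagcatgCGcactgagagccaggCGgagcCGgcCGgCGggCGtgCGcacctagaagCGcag
The window has no HindIII site (AAGCTT, its own reverse complement), which 7.45% of the promoters hold. This describes the letters of the window and says nothing about binding.

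Seen from Rnf32, contact did not fall steadily with distance but rose again at the Shh end of the desert, about 745.5 kb away. To remove the effect of distance, each value was divided by the mean of all pairs of the same separation in the same library (observed over expected, 1 being average). Partner bins at least 5 bins away, 67 in number, were ranked by this value. Bin 21 (chr5:28758087-28779087) and bin 24 (chr5:28821087-28842087) held the first and second place in limb bud and, in the other order, in wild type ESC. Bin 21 had 2.25 and 2.25 in posterior and 2.44 and 2.63 in anterior limb bud, a mean of 2.39, against 1.83 and 2.44 in wild type ESC. Bin 24 had 1.71 and 2.11 in posterior and 2.73 and 2.49 in anterior limb bud, against 2.09 and 2.64 in wild type ESC. Bins 21 and 24 flank the Shh bin, bin 22 (chr5:28779087-28800087), and in 15 of 19 libraries the Shh bin was lower than both. The strongest distant partner was bin 24 in 12 libraries and bin 21 in the other 7. The third place belonged to bin 20 (chr5:28737087-28758087) in limb bud, with a mean of 1.56, and to the Shh bin in wild type ESC, with a mean of 1.73.

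**Figure D1:**
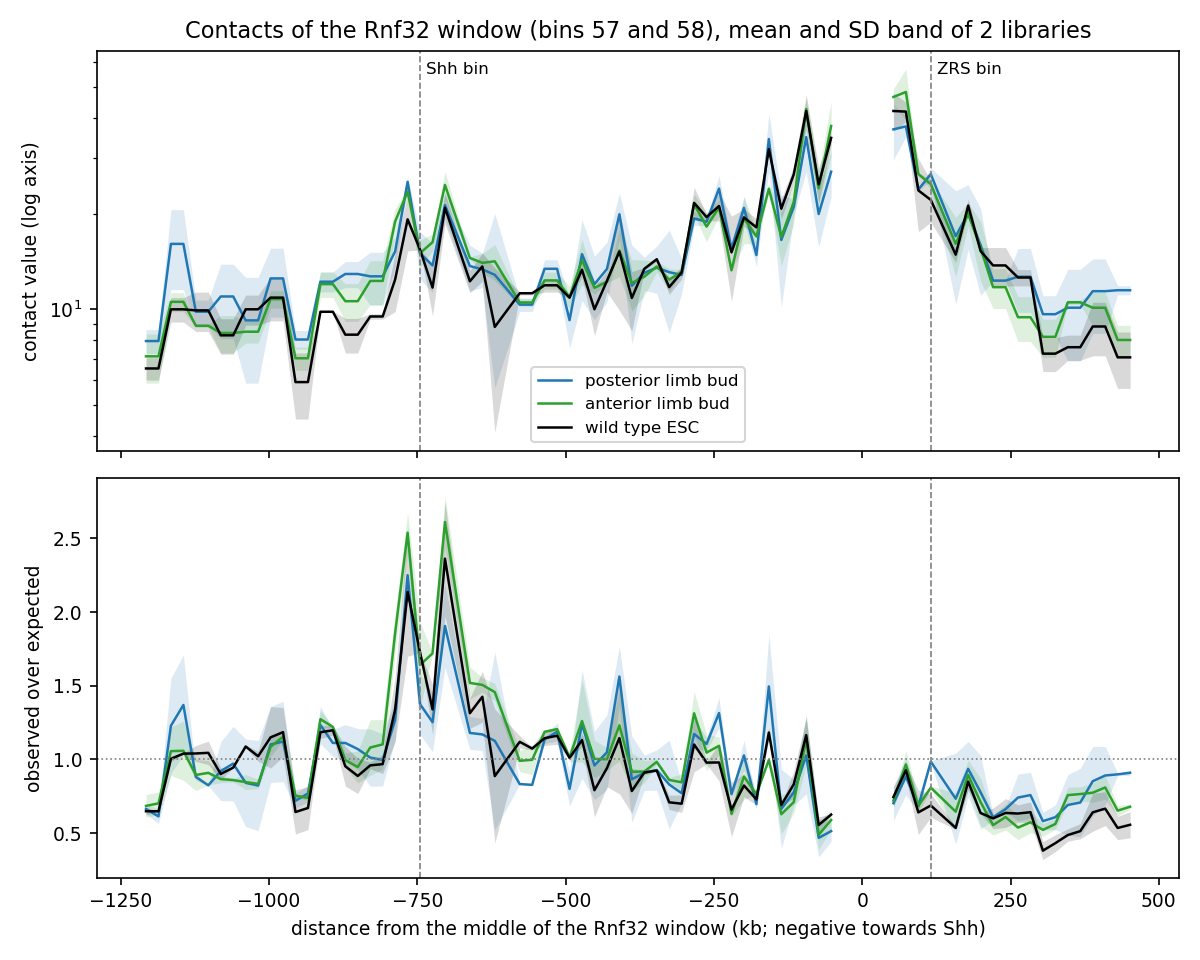
Mean contact value (upper panel, log axis) and observed over expected (lower panel) of the Rnf32 window against distance in kb from its middle, for posterior limb bud, anterior limb bud and wild type ESC; bands are the SD of 2 libraries and dashed lines mark the Shh and ZRS bins. The curves rise again near the Shh bin, where bins 21 and 24 reach means of 2.14 and 2.36 in wild type ESC, and stay below 1 over most of the side beyond the ZRS.

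Across the desert the distance-corrected contact of the Rnf32 window was highest near Shh. Over bins 23 to 31 the mean observed over expected was 1.18 ± 0.07 in posterior limb bud and 1.54 ± 0.01 in anterior limb bud, against 1.36 ± 0.01 in wild type ESC (SD, n = 2 each). Over bins 48 to 55, next to Rnf32, it was 0.83 ± 0.02 in posterior and 0.78 ± 0.01 in anterior limb bud, against 0.83 ± 0.002 in wild type ESC. The bins between were intermediate in wild type ESC, with 1.01 ± 0.01 over bins 32 to 39 and 0.87 ± 0.08 over bins 40 to 47. The Rnf32 window thus met the near part of the desert less than the average pair of equal separation and the far end more, in all 3 groups.

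Bin58, on the Lmbr1 side, had more contact with the Shh bin than bin57 in 17 of 19 libraries. The medians over the libraries were 18.0 for bin58 and 12.0 for bin57, or 1.88 and 1.21 as observed over expected. Bin58 was also higher with the Rnf32 side of the desert in 19 of 19 libraries. Over the 16 desert partners that both bins have after the 2-bin limit, the medians were 22.5 for bin58 and 19.4 for bin57, or 0.98 and 0.73 as observed over expected. With the ZRS bin, by contrast, bin58 was higher in 11 of 19 libraries and the medians were 24.4 and 24.1. The 2 libraries in which bin58 was not higher with the Shh bin were DCTCF4 replicate 2, with 6.02 for bin58 and 20.2 for bin57, and posterior limb bud replicate 2, where both were at 13.2.

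Windows of neighbouring bins were ranked by their observed over expected with the Shh bin to place Rnf32. Of 65 windows at least 5 bins from Shh, the Rnf32 window held rank 12 in limb bud with 1.51 ± 0.26 (SD, n = 4), and rank 18 in wild type ESC with 1.73 ± 0.003 (SD, n = 2). The leading window was close by, inside Lmbr1: the window of bins 61 and 62 had 4.42 ± 1.26 in limb bud and 4.32 ± 0.58 in wild type ESC. In wild type ESC, ranks 3 and 4 belonged to windows beyond Shh, starting at bins 7 and 8, with 4.00 ± 1.65 and 3.86 ± 1.69. In limb bud these had 0.90 ± 0.21 and 0.98 ± 0.17. The window of bins 56 and 57, on the desert side of Rnf32, had 1.23 ± 0.17 in limb bud and 1.25 ± 0.24 in wild type ESC. Contact with Shh was thus higher at the Rnf32 window than just before it and lower than at the window of bins 61 and 62. The next window towards Lmbr1, starting at bin 58, was nearly level, with 1.63 ± 0.40 in limb bud and 1.76 ± 0.14 in wild type ESC. Most desert windows lay below the Rnf32 window. The highest desert window, starting at bin 52, lay above it, with 1.64 ± 0.33 in limb bud and 2.10 ± 0.04 in wild type ESC. This describes levels without a test.

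Bins at least 5 bins from the Rnf32 window were compared with it by their profile of log2 observed over expected over partner bins. Nearer bins were left out. The most alike were bins 49, 47 and 48 in limb bud, with Pearson correlations of 0.80, 0.77 and 0.73 over 70 partners. In wild type ESC they were bins 49, 47 and 63, with 0.80 (70 partners), 0.76 (70 partners) and 0.76 (71 partners). Bins 47 (chr5:29304087-29325087), 48 and 49 (chr5:29346087-29367087) lie in the desert, and bin 63 holds the ZRS. All points of a profile share the same libraries, and neighbouring partners share values.

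Contact of the Rnf32 window with the Shh bin was the value that separated one line from wild type. The mean contact value was 8.53 and 7.28 in the DCTCF2 libraries, against 15.4 and 15.4 in wild type ESC. Both DCTCF2 libraries lay below all 17 others, the lowest of which had 9.64 (DCTCF3 replicate 2). The DCTCF2 mean was 7.91 ± 0.88 and the wild type mean 15.4 ± 0.02 (SD, n = 2 each). The log2 change of -0.65 ± 0.11 (SE) passed limma with Benjamini-Hochberg adjustment (adjusted p = 0.0286). As observed over expected the values were 1.02 and 0.93 in DCTCF2, against 1.73 and 1.72 in wild type ESC.

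The close match of the wild type libraries came from the mean of both bins. Bin57 with the Shh bin had 6.56 and 6.81 in DCTCF2, against 12.9 and 8.94 in wild type. Bin58 with the Shh bin had 10.5 and 7.76 in DCTCF2, against 18.0 and 21.9 in wild type. The groups did not overlap in either pair, but how many of all pairs separate this way was not counted. Neither pair passed on its own among the bin pairs (adjusted p = 0.538 for bin57 and 0.370 for bin58, limma).

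The lower contact was shared by other viewpoints of the Shh bin. In DCTCF2 9 of the 77 windows tested with the Shh bin passed as lower, 63 of 77 had a negative change, and by size of change the Rnf32 window had rank 6. The median over these 77 windows was -0.31. The call of the Rnf32 window was lost under scaling to the median (log2 change -0.54, adjusted p = 0.0962), as observed over expected (-0.60, adjusted p = 0.108) and without DCTCF2 replicate 1 (-0.71, adjusted p = 0.0705), DCTCF2 replicate 2 (-0.58, adjusted p = 0.158) or wild type replicate 1 (-0.61, adjusted p = 0.159). Within the 2015 runs, which hold both DCTCF2 libraries and 1 wild type library, the difference was -0.68.

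The other partners of the Rnf32 window in DCTCF2 did not pass. Of 7 regions, 1 passed in DCTCF2, the Shh bin, where 2.59% of all windows and regions were called. The changes with the other 6 regions were all negative, between -0.14 and -0.19. Nearby bins overlapped with wild type: bin 21 had a mean observed over expected of 2.32 ± 0.43 in DCTCF2 and 2.14 ± 0.44 in wild type, and bin 24 had 2.28 ± 0.08 in DCTCF2 and 2.36 ± 0.39 in wild type (SD, n = 2 each). Bin 23, which shares its bin57 value with the Shh bin, had 1.05 ± 0.42 in DCTCF2 and 1.34 ± 0.17 in wild type. Whether the change differs between these partners was not tested.

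**Figure D2:**
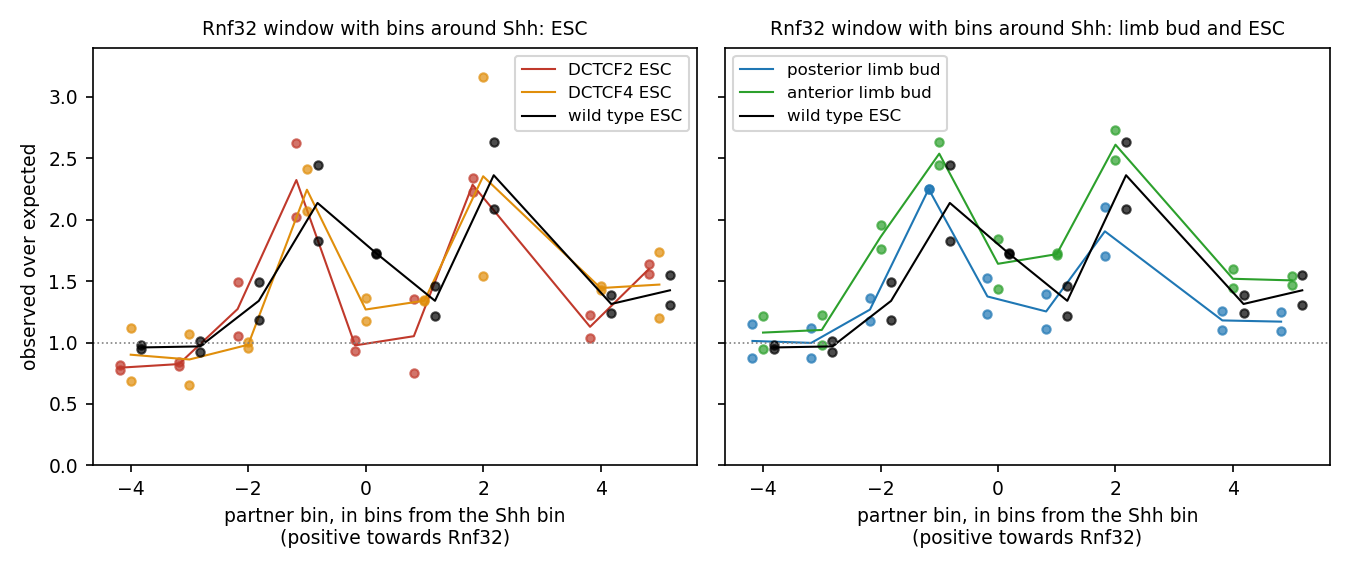
Observed over expected of the Rnf32 window with partner bins around Shh, in bins from the Shh bin, for DCTCF2, DCTCF4 and wild type ESC (left) and for posterior limb bud, anterior limb bud and wild type ESC (right); points are libraries and lines join group means. At the Shh bin both DCTCF2 points, 1.02 and 0.93, lie below the wild type points at 1.73 and 1.72, while the peaks 1 bin before and 2 bins after it overlap.

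DCTCF3 and DCTCF4 had lower mean contact with the Shh bin than wild type, without passing the test. The mean contact value was 13.7 and 9.64 in DCTCF3, against 15.4 and 15.4 in wild type, with a log2 change of -0.28 (95% interval -0.53 to -0.04, adjusted p = 0.423, limma). In DCTCF4 it was 10.9 and 13.1, with a change of -0.29 (-0.54 to -0.05, adjusted p = 0.150, limma). The 95% intervals here and below are not adjusted for multiple tests. In DCTCF4 the direction depended on the bin: with the Shh bin, bin57 had 9.18 and 20.2 (log2 change 0.26) and bin58 had 12.7 and 6.02 (-0.85), neither past the threshold.

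DCTCF1, DCTCF5 and D35 had smaller changes at the Shh bin. DCTCF1 had 16.4 and 14.1, a change of 0.02 (95% interval -0.22 to 0.26), and DCTCF5 had 13.3 and 17.3, a change of -0.002 (-0.25 to 0.24). D35 had 17.1 and 17.5, a change of 0.14 (-0.11 to 0.38).

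The ZRS, in bin 63 (chr5:29640087-29661087), is 115.5 kb from the middle of the Rnf32 window. Outside the single embryo body library, with 1.22, mean contact of both bins with it was below the average for that distance. This mean observed over expected was under 1 in all 14 ESC libraries, between 0.58 and 0.95, and in all 4 limb bud libraries, between 0.80 and 0.99. Taken singly, bin57 had 1.02 and 1.13 in posterior limb bud, and bin58 had 1.03 in D35 replicate 1. The other single values outside the embryo body were under 1. Contact of the window with the ZRS bin was 29.8 and 26.9 in D35, against 19.8 and 24.4 in wild type ESC. The groups did not overlap. D35 also lay above wild type without overlap with the Shh bin, both sides of the desert and the Lmbr1 bins, whereas the left and right domains overlapped. The share of all windows and regions that separate this way was not counted. With the ZRS bin the log2 change of 0.32 ± 0.09 (SE, 95% interval 0.13 to 0.52) did not pass (adjusted p = 0.0649, limma). In D35 0 of 7 regions passed, where 3.97% of windows and regions were called. The D35 change with the ZRS bin did pass in 5 of 11 other settings, among them as observed over expected (0.30, adjusted p = 0.0397), and without wild type replicate 2 (0.44, adjusted p = 0.0389). Nearly all viewpoints of the ZRS bin moved this way in D35, since 69 of 75 windows had a positive change and 5 passed, with a median of 0.24.

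In D35, whose bin 65 between the ZRS bin and the right domain was at 0, 1 of 146 Rnf32 pairs passed, where 1.12% of all bin pairs were called. It joined bin57 with bin 66 (chr5:29703087-29724087), the first bin past the empty one. Contact was 10.5 and 9.20 in D35, against 21.8 and 16.4 in wild type ESC. Both D35 values lay below all 17 other libraries, whose lowest was 14.8. The log2 change was -0.71 ± 0.15 (SE, adjusted p = 0.0335, limma), and the call was lost as observed over expected (-0.52, or -0.51 with the authors' values) and without D35 replicate 1, D35 replicate 2 or wild type replicate 1. Bin 66 had 14 of its 74 pairs called lower in D35. Whether bin 66 adjoins the stretch deleted in D35 was not tested. Bin58 with bin 66 did not follow, with 23.3 and 22.4 in D35 and 22.1 and 24.5 in wild type ESC.

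DCTCF5 also had more contact between the Rnf32 window and the ZRS bin than wild type, with 27.0 and 29.5 in DCTCF5, against 19.8 and 24.4 in wild type ESC. The log2 change of 0.32 (95% interval 0.13 to 0.52) did not pass (adjusted p = 0.408, limma), and in DCTCF5 0 of 7 regions passed, where 0.0% of windows and regions were called. Against the 1 wild type library of its own run year, the DCTCF5 difference was 0.21. DCTCF1 had 25.9 and 25.1, a change of 0.20 (0.003 to 0.39, adjusted p = 0.256, limma), which was 0.33 within the 2015 runs and 0.07 within the later ones, each with 1 library of either group. DCTCF2, DCTCF3 and DCTCF4 had changes of -0.14, 0.02 and -0.10 with the ZRS bin, none past the threshold. In DCTCF1, DCTCF3 and DCTCF4 0 of 7 regions passed, where 0.185%, 0.0% and 7.95% of windows and regions were called.

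The wild type libraries themselves differed at the ZRS bin. Bin57 with the ZRS bin had 17.2 and 30.8 in wild type replicates 1 and 2. Bin58 with the ZRS bin went the other way, with 22.4 and 18.1.

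**Figure D3:**
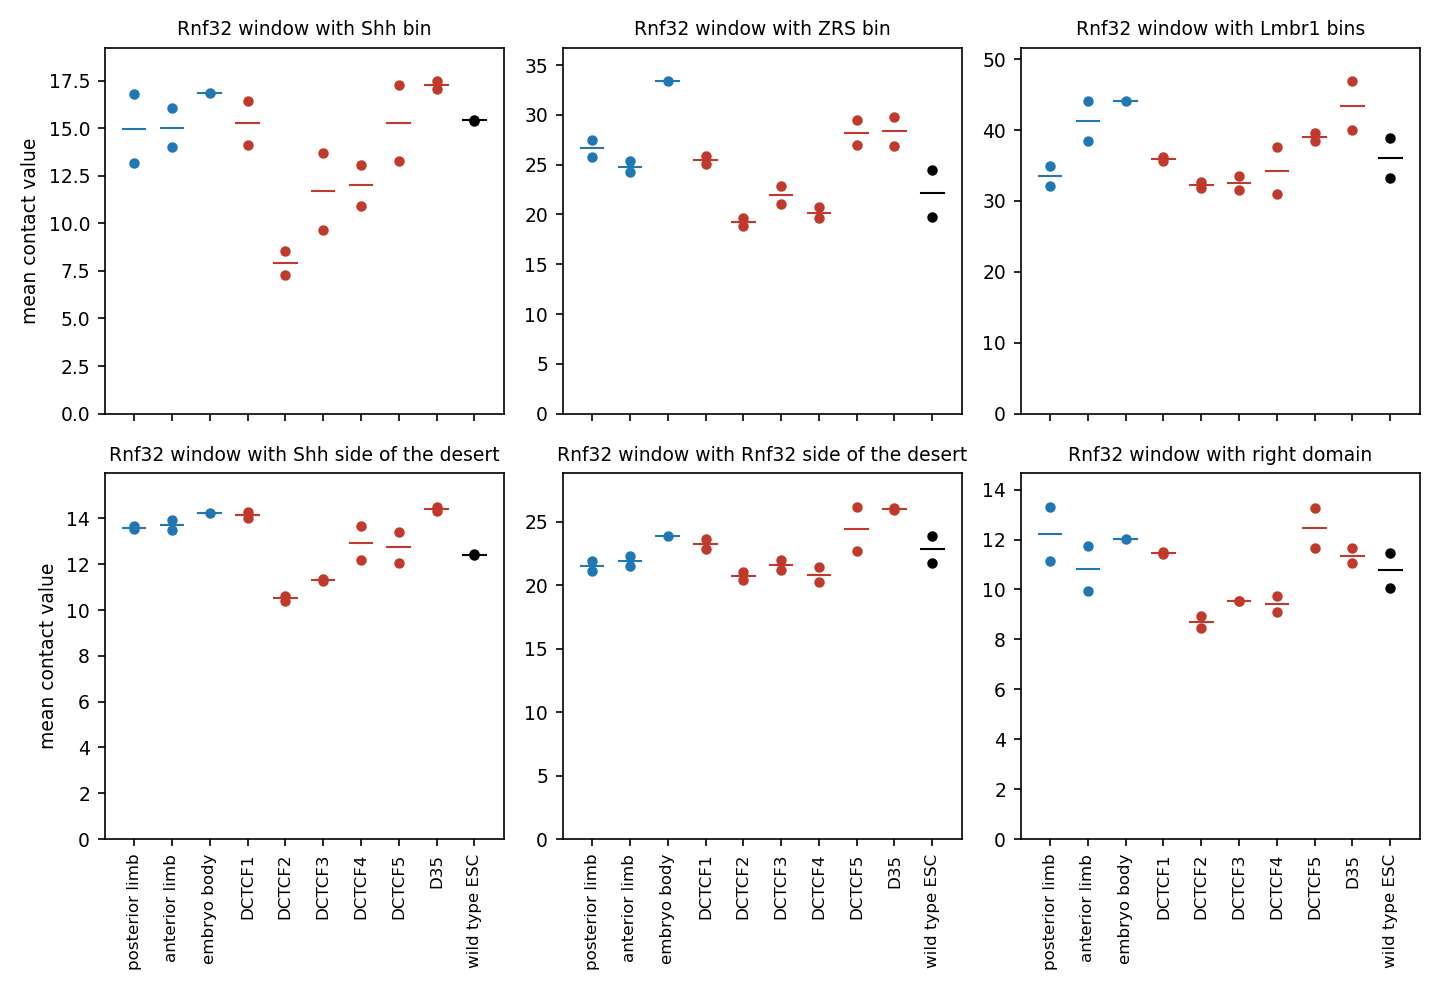
Mean contact value of the Rnf32 window with 6 regions in each library (points) and its group mean (bars), for limb bud and embryo body (blue), ESC deletion lines (red) and wild type ESC (black); axes start at 0. The DCTCF2 points, 8.53 and 7.28, are the lowest with the Shh bin, and the single embryo body point, 33.4, is the highest with the ZRS bin.

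Single pairs of the Rnf32 bins were also tested one by one. In DCTCF1, DCTCF2, DCTCF3, DCTCF4 and DCTCF5 0 of 148 Rnf32 pairs passed limma, where 0.0%, 0.0351%, 0.0%, 0.806% and 0.0% of all bin pairs were called. At an unadjusted p under 0.05 the Rnf32 pairs numbered 8, 12, 11, 15 and 5, and 12 of 146 in D35. These are 5.41%, 8.11%, 7.43%, 10.1%, 3.38% and 8.22% of the Rnf32 pairs, against 7.64%, 9.32%, 7.05%, 14.6%, 5.33% and 9.72% of all pairs tested, so the shares were near or below the background. The median log2 change over the Rnf32 pairs was 0.14, -0.17, -0.12, -0.05 and 0.07 in DCTCF1 to DCTCF5, against 0.07, -0.07, -0.01, 0.01 and 0.004 over all pairs tested. In D35 it was 0.07 for the Rnf32 pairs and 0.05 for all.

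The smallest p in both DCTCF1 and DCTCF2 belonged to bin58 with bin 50 (chr5:29367087-29388087), a desert bin 8 bins away. Contact was 6.97 and 7.88 in DCTCF1, and 10.3 and 8.18 in DCTCF2, against 28.2 and 35.8 in wild type ESC. These were the 4 lowest of the 19 libraries, without overlap, in a pair chosen for its small p, which favours such a separation. The log2 changes of -1.60 ± 0.38 and -1.41 ± 0.38 (SE) did not pass (adjusted p = 0.219 and 0.323, limma). The spread for this pair was wide, since DCTCF5 had 11.8 and 50.5, and DCTCF4 had 20.2 and 22.6. D35 had 43.9 and 43.9, and DCTCF3 had 27.6 and 28.1. Bin 50 was lower with 66 of its 74 partners in each of DCTCF1 and DCTCF2, with medians of -0.37 and -0.43, and with 69 of 74 in DCTCF4, with a median of -0.46.

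In DCTCF1 the next pairs were bin58 with bin 21, at 11.7 and 13.6 against 20.3 and 21.9 in wild type ESC, and bin58 with bin 45 (chr5:29262087-29283087), at 29.4 and 27.5 against 19.4 and 19.5. Their adjusted p-values were 0.395 and 0.398 (limma). Among the distant partners of the window bin 21 held ranks 14 and 7 of 67 in the DCTCF1 libraries, and rank 5 or better in the other 17. In DCTCF3 the smallest p were those of bin57 with bins 4 and 5, which share one value in these libraries, at 4.59 and 4.92 against 9.61 and 7.89 in wild type ESC, and of bin57 with bin 70, at 9.67 and 6.25 against 12.3 and 13.6 (adjusted p = 0.684 each, limma).

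At the Mnx1-side boundary, bin58 with bin 65 (chr5:29682087-29703087) lay above both wild type libraries in all 10 DCTCF libraries. It had 31.5 and 47.8 in DCTCF4, and 36.2 and 29.8 in DCTCF5, against 15.9 and 22.3 in wild type ESC. DCTCF1 had 29.2 and 28.4, DCTCF2 had 25.9 and 27.5, and DCTCF3 had 28.8 and 23.9. All 5 lines share these 2 wild type libraries. The pair was named for its small p in DCTCF4 and DCTCF5, and the share of all pairs that separate this way was not counted. Over its 75 partners bin 65 had median log2 changes of 0.19, -0.04, -0.06, 0.17 and 0.32 in DCTCF1 to DCTCF5. The log2 changes of bin58 with bin 65 in DCTCF4 and DCTCF5 were 0.89 ± 0.19 and 0.67 ± 0.19 (SE), with adjusted p = 0.0515 and 0.636 (limma). The DCTCF4 change passed without scaling (adjusted p = 0.0494), under median scaling (adjusted p = 0.0362) and with a pseudocount 4 times larger (adjusted p = 0.0475), and 3 Rnf32 pairs passed without DCTCF4 replicate 1 (limma). One bin further, bin58 with bin 66 had 14.6 and 13.5 in DCTCF4, against 22.1 and 24.5 in wild type ESC (log2 change -0.58 ± 0.14 SE, adjusted p = 0.0716, limma). The same pair had 14.6 and 16.8 in DCTCF2 (-0.46, adjusted p = 0.370, limma). In DCTCF5 bin58 with bin 63 changed by 0.40 and with bin 61 by 0.35 (adjusted p = 0.712 each, limma).

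**Figure D4:**
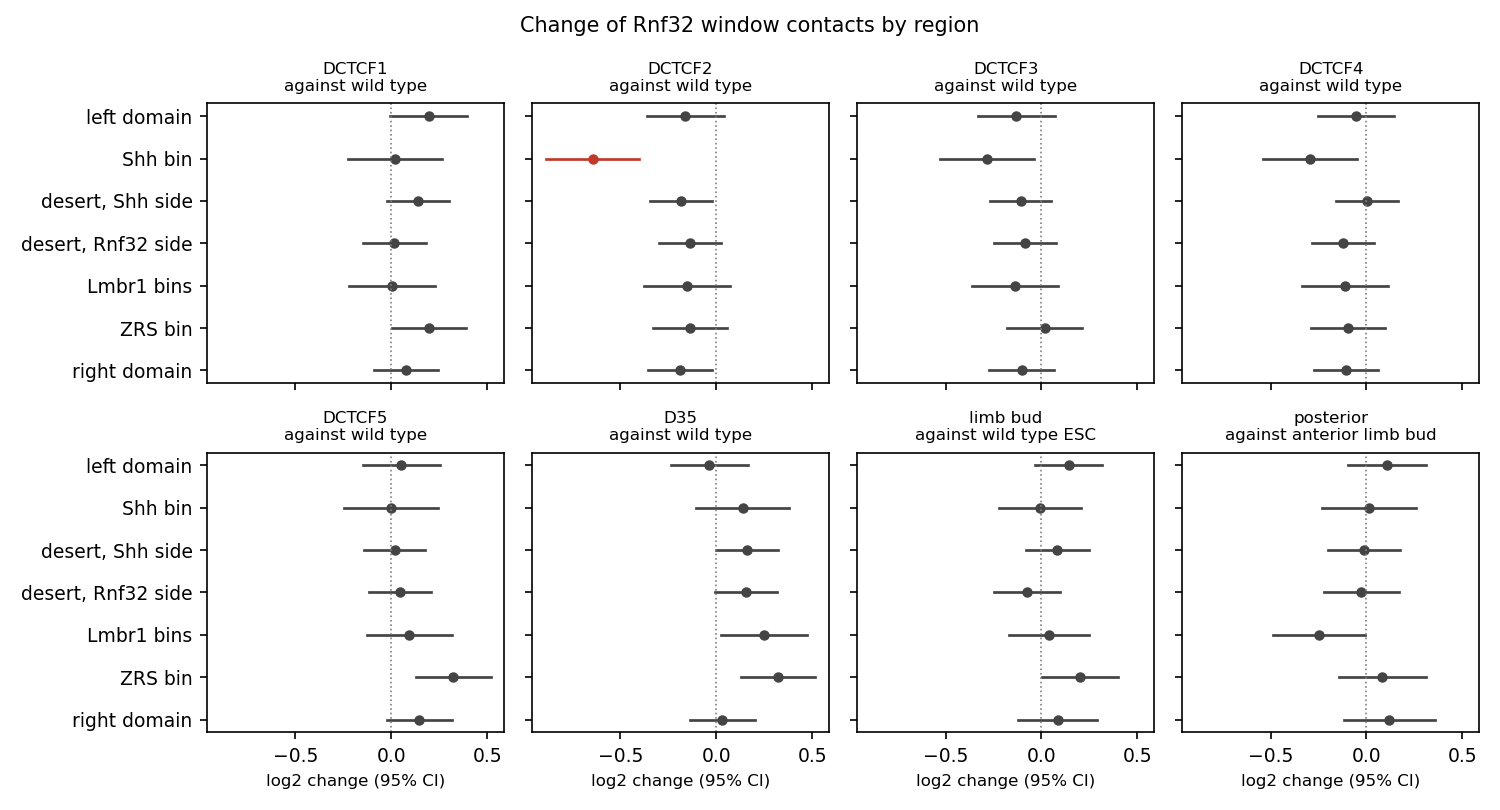
Log2 change of the mean contact of the Rnf32 window with 7 regions (rows) in 8 comparisons (panels), as limma estimates with unadjusted 95% intervals; positive values are higher in the first-named group, and red marks an adjusted p under 0.05. The Shh bin in DCTCF2, at -0.65, is the only value in red.

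The limb bud libraries were set against wild type ESC to ask whether the Rnf32 contacts differ between embryonic tissue and stem cells. No difference was detected with the Shh bin, where contact was 16.8 and 13.2 in posterior limb bud, and 14.0 and 16.1 in anterior limb bud, against 15.4 and 15.4 in wild type ESC. The log2 change of the limb bud mean was -0.01 (95% interval -0.22 to 0.21, adjusted p = 0.974, limma). With the ZRS bin the libraries had 27.5 and 25.8 in posterior limb bud, and 24.2 and 25.4 in anterior limb bud, against 19.8 and 24.4 in wild type ESC. The change of 0.20 (0.004 to 0.40) did not pass (adjusted p = 0.159, limma).

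In this comparison 0 of 7 regions and 0 of 148 pairs of the Rnf32 bins passed, where 12.6% of windows and regions and 0.0701% of bin pairs were called. At an unadjusted p under 0.05 there were 9 Rnf32 pairs (6.08%), against 14.2% of all pairs. Of these, bin58 with bin 20 had 18.4 and 15.7 in posterior and 23.4 and 24.1 in anterior limb bud, against 15.6 and 9.30 in wild type ESC (log2 change 0.55 ± 0.17 SE, adjusted p = 0.260, limma). Bin58 with the desert bin 51 was lower, with 11.0 and 16.7 in posterior and 17.3 and 12.6 in anterior limb bud, against 20.6 and 23.2 in wild type ESC (-0.48 ± 0.18 SE, adjusted p = 0.294, limma). Bin58 with bin 78 in the right domain changed by 0.36 (adjusted p = 0.294, limma). Tissue, strain and cell type differ together in this comparison and cannot be told apart.

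The ZRS drives Shh in the posterior limb bud, and the posterior and anterior parts were compared for this reason. No region of the Rnf32 window passed: 0 of 7 regions and 0 of 148 pairs were called, where 0.0% of windows and regions and 0.0% of bin pairs were, and 6 Rnf32 pairs (4.05%) had an unadjusted p under 0.05, against 11.1% of all pairs (limma). Contact with the ZRS bin was 27.5 and 25.8 in posterior limb bud, against 24.2 and 25.4 in anterior limb bud. These values did not overlap, but how many windows separate this way was not counted. The log2 change with the ZRS bin was 0.08 (95% interval -0.14 to 0.31). Contact with the Shh bin overlapped, with a change of 0.01 (-0.23 to 0.26). Contact with the Lmbr1 bins was 34.9 and 32.1 in posterior, against 38.5 and 44.1 in anterior limb bud, a change of -0.25 ± 0.11 (SE, adjusted p = 0.281, limma).

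The smallest p among single pairs was that of bin57 with the desert bin 50, at 41.8 and 47.1 in posterior limb bud, against 19.8 and 27.6 in anterior limb bud (log2 change 0.79 ± 0.19 SE, adjusted p = 0.409, limma). Bin58 with bins 2 and 3, at the far left end, had 17.1 and 29.0 in posterior, against 10.2 and 12.1 in anterior limb bud (0.76 ± 0.23 SE, adjusted p = 0.409, limma). The groups did not overlap in either case, but these pairs were chosen for their small p, which favours such a separation. The share of all pairs without overlap was not counted.

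Fragment counts gave a finer view of the limb bud libraries, with whole-number reads per pair of 343 HindIII fragments. Of these, 8 lie in bin57, 4 in bin58, 5 in the Shh bin and 5 in the ZRS bin. Libraries held 749738 and 1400833 counts in posterior and 1022801 and 1383595 in anterior limb bud. The Rnf32 fragments took part in 6.13% and 5.44% of posterior counts, and 6.10% and 5.85% of anterior counts. Their contacts with the Shh-bin fragments summed to 668 and 563 counts in posterior, against 630 and 877 in anterior limb bud. As shares of the library these were 0.0891% and 0.0402% in posterior, on either side of 0.0616% and 0.0634% in anterior limb bud. Contacts with the ZRS-bin fragments summed to 1058 and 1915 in posterior, against 1206 and 1476 in anterior limb bud, or 0.141% and 0.137% of the library against 0.118% and 0.107%.

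The named fragment pairs are those with the most counts. The fragment chr5:29514013-29518402 (mm9) lies at the desert end of bin57, and its pair with the Shh-bin fragment chr5:28782635-28789524 had 96 and 121 counts in posterior, against 113 and 81 in anterior limb bud. The fragment chr5:29539102-29543893 in bin58 had 60 and 133 counts with the same Shh fragment in posterior, against 52 and 138 in anterior limb bud. On the ZRS side the pair of chr5:29531243-29534953 with chr5:29642804-29649071 had 87 and 190 counts in posterior, against 117 and 80 in anterior limb bud. The pair of chr5:29527779-29530051 with the same ZRS fragment had 51 and 131 counts in posterior, against 96 and 140 in anterior limb bud. As raw counts, not scaled to the unequal library totals, all 4 pairs overlapped between the groups. Overlap after scaling was not examined. The log2 changes, which allow for library size, were 0.13, -0.05, 0.34 and -0.51 (adjusted p = 1.00 each, edgeR quasi-likelihood test).

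Of 1667 Rnf32 fragment pairs with at least 10 counts 0 passed, where 0.0% of 23148 pairs were called. At an unadjusted p under 0.05 there were 47 Rnf32 pairs (2.82%), against 3.22% of all pairs. Some of these 47 had 0 counts in both posterior libraries and reached the 10 counts through anterior limb bud alone. DESeq2 called 7 of the 1211 Rnf32 pairs to which it gave an adjusted p (0.578%), and 0.482% of all such pairs. Counts of 0 were common: of 4038 Rnf32 fragment pairs, 1950 had a count in any library. How many of these pairs the primer set can report was not examined. On simulated counts with the same libraries this test called 0% of pairs changed by 2 on the log2 scale, so a count of 0 here says little about single fragment pairs.

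At matched separations of 8 to 21 bins (168 to 441 kb) the Rnf32 window met the Shh side more than the Mnx1 side in all 19 libraries. The Shh-side mean contact was 15.5 and 17.2 in the wild type ESC libraries, and the Mnx1-side mean was 10.2 and 11.6. The mean log2 difference, Shh side minus Mnx1 side over 27 pairs per side, was between 0.18 (DCTCF5 replicate 1) and 0.55 (D35 replicate 1). Its group mean was 0.29 ± 0.08 in posterior and 0.38 ± 0.13 in anterior limb bud, against 0.43 ± 0.04 in wild type ESC (SD, n = 2 each). In wild type ESC the Rnf32 window held rank 13 of the 47 windows that could be measured, 30 of which were above 0.

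The balance of the Rnf32 window passed in 0 of 8 comparisons (limma, unadjusted p under 0.05 in 0). D35 had 0.55 and 0.55, against 0.46 and 0.40 in wild type ESC, a change of 0.12 (95% interval -0.07 to 0.31, adjusted p = 0.494, limma). DCTCF5 had 0.18 and 0.47, a change of -0.11 (-0.30 to 0.08, adjusted p = 0.518, limma). The shares of the 47 windows called were 8.51%, 0.0%, 0.0%, 10.6% and 0.0% in DCTCF1 to DCTCF5, 0.0% in D35, and 31.9% in each of the limb bud comparisons.

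**Figure D5:**
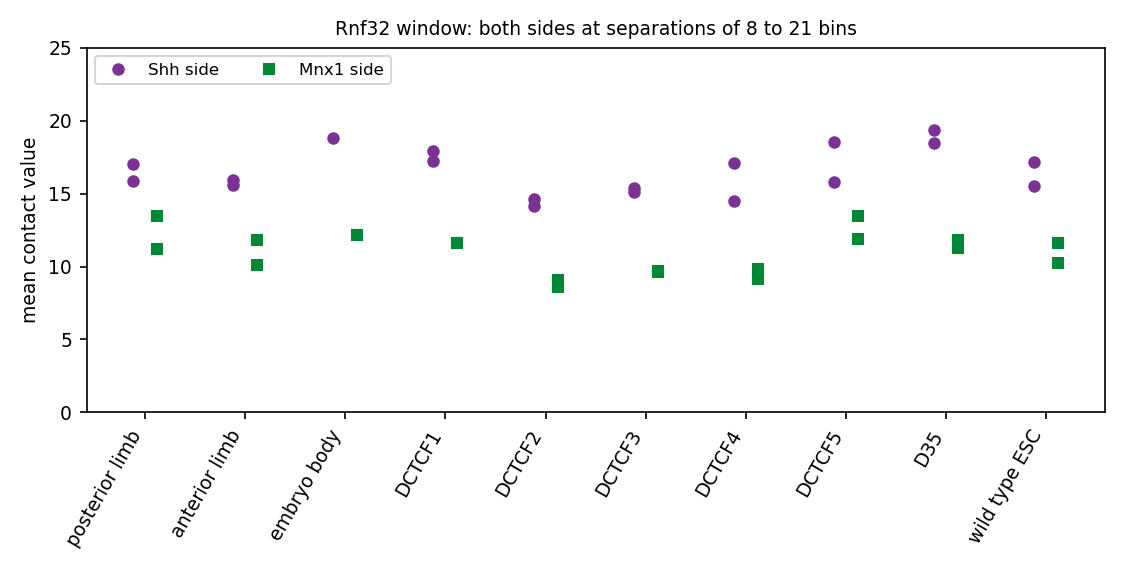
Mean contact value of the Rnf32 window with the Shh side (circles) and the Mnx1 side (squares) at separations of 8 to 21 bins, for each library; the axis starts at 0. In every library the circle lies above the square, with wild type ESC at 15.5 and 17.2 against 10.2 and 11.6.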

How the data were processed

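The binned matrices hold a contact signal deposited by the authors for pairs of 80 bins of 21 kb (mm9, per the submitters' processing notes). The sources used here name no aligner, binning or normalisation. The deposited observed over expected ratio of the ESC libraries served as an alternative. The deposited fragment matrices of the limb buds hold counts. Pairs separated by 2 or more bins, with a value over 0 in 50% or more of the libraries, were brought to a common total and tested by limma 3.58.1 (R 4.3.3) on log2(signal + pseudocount), the pseudocount being the 5th percentile of values above 0 (4.56 for ESC, 5.18 for tissues), which understates changes of low values. One fit held 14 ESC libraries and another the 6 wild type ESC and limb bud libraries. Benjamini-Hochberg adjustment ran over all features of a comparison (threshold 0.05). A region value is the mean log2 signal over its pairs. The regions are the left domain (bins 0 to 20), the Shh bin 22, the Shh side (bins 23 to 39) and the Rnf32 side (bins 40 to 56) of the desert, Lmbr1 (bins 59 to 62), the ZRS bin 63 and the right domain (bins 66 to 79). D35 fits omit bin 65. Fragment counts were tested by edgeR 4.0.16 (quasi-likelihood, TMM, at least 10 counts), with DESeq2 as an alternative. Tests were tried on simulated data: limma called 79% of bin pairs changed by 1 on the log2 scale in DCTCF2 and edgeR 0% of fragment pairs. For DCTCF2, 100 of 2853 simulated bin pairs changed by 1 and 100 by 2, with noise independent between pairs. In the real DCTCF2 data 0.0351% of pairs were called and neighbouring pairs share values. The 79% therefore does not give the power of the real tests. Named pairs are those with the Shh and ZRS bins, and per comparison the called pairs or the 3 of smallest p. The members and lists were chosen with earlier results of these data known.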

Additional observations from a re-analysis of the deposited data

Results flagged for a closer look

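The embryo body library entered no comparison, and its contacts of the Rnf32 window exceeded all 6 wild type ESC and limb bud libraries in 5 of 7 regions. How often it does so at other windows was not counted, so the count is not a trait of Rnf32. With the ZRS bin it had a mean contact value of 33.4, against at most 27.5 in those libraries, and an observed over expected of 1.22. The other 4 regions exceeded them narrowly. The Shh bin had 16.87 in the embryo body, against at most 16.80, and the Lmbr1 bins had 44.12, against at most 44.06. The Shh side of the desert had 14.3, against at most 13.9, and the Rnf32 side had 23.92, against at most 23.90. With 1 library there is no test, and run year (2014, before all other libraries) cannot be told apart from tissue.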

How the results depend on the processing

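Of 861 region values of the Rnf32 window under alternative settings, 837 kept their side of the threshold, 8 lost a call, 16 gained one and 0 called values changed sign; 829 were uncalled in both, and 79 of those changed sign. In DCTCF2 the Shh bin lost its call under median scaling (-0.54), as observed over expected (-0.60, or -0.59 with the authors' values), with bin 57 alone (-0.45) and with bin 58 alone (-0.84); leaving out libraries gave -0.71 to -0.58, and a run year term gave -0.70 (adjusted p = 0.0433). In D35 the ZRS bin gained a call without scaling (0.36), as observed over expected (0.30, or 0.33 with the authors' values) and with bin 58 alone (0.54), and leaving out libraries gave 0.21 to 0.44; the Lmbr1 bins gained one with the authors' values (0.31). With the other 5 deletion lines as control, calls were gained in DCTCF1 for the left domain (0.26), in DCTCF2 for the Shh side of the desert (-0.23), the ZRS bin (-0.29) and the right domain (-0.20), in DCTCF4 for the ZRS bin (-0.24), and in D35 for the Shh bin (0.38), the Shh side (0.19) and Rnf32 side (0.21) of the desert, Lmbr1 (0.31) and the ZRS bin (0.26). The cause was not tested.

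Rnf32 pairs called in DCTCF4 numbered 0 in the reported setting, 1 without scaling and 1 under median scaling (0.676% of Rnf32 pairs, against 1.09% and 0.771% of all pairs), 2 with a pseudocount 4 times larger and 2 against the other lines (1.35%, against 1.05% and 3.96%), and 0 to 3 when leaving out libraries (3 being 2.03%, against 3.61%). In D35 the 1 called pair became 0 as observed over expected, with either set of values, 7 against the other lines (4.79%, against 5.04% of all pairs), and 0 to 1 when leaving out libraries. DCTCF5 had 1 against the other lines (0.676%, against 1.05%). It was bin58 with bin 65, a pair also among the 2 called in DCTCF4 against the other lines. Those other lines include D35, where this pair was at 0, and these calls were not tested without D35. Pairs of bin 65 also enter the shares of all pairs in this setting, except in the D35 comparison. DESeq2 called 7 Rnf32 fragment pairs (0.578%, against 0.482%) where edgeR called 0. The authors' observed over expected and the run year term on the side balance were chosen after seeing the data, and a run year term could not be fitted for D35, whose libraries share a run year of their own.

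Replicate numbers did not pair the libraries: deviations of same-numbered libraries correlated between -0.11 and 0.11 in 21 pairs of ESC groups and between -0.03 and 0.02 in 3 pairs of tissue groups. With the replicate number as a block, the DCTCF2 Shh value stayed at -0.65 (adjusted p = 0.0368), D35 had 1 called pair and the other comparisons 0. The unknown depth of the binned values, 2 libraries per group and neighbouring bins with shared values limit all of these results.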

Other observations

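Pairs of the Rnf32 bins fewer than 2 bins apart entered no comparison. As deposited, bin 58 with itself had contact values between 100.2 and 1547 over the 19 libraries, with a median of 491, and bin 57 with itself between 82.9 and 307, with a median of 153. Bin 57 with its desert-side neighbour, bin 56, had between 40.4 and 427, with a median of 51.9, whereas bin 58 with its Lmbr1-side neighbour, bin 59, had between 61.3 and 113.1.

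Some Rnf32 fragment pairs had 0 and 0 counts in posterior limb bud and were singled out after their values were seen. One between bins 57 and 60 had 49 and 73 counts in anterior limb bud. Another, between bins 44 and 57, had 29 and 79, and one between bins 41 and 57 had 40 and 59. Such pairs reach the minimum of 10 counts through anterior limb bud alone, so no p-value is given for them. They remained among the 1667 Rnf32 fragment pairs tested and the 47 with an unadjusted p under 0.05 (edgeR quasi-likelihood test). Posterior replicate 1 had a count in 1433 Rnf32 pairs and posterior replicate 2 in 1158, against 1659 and 1727 in anterior limb bud.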
